A study of Mus musculus with 9 samples.

Results

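The genes described here are 10 members of the small leucine-rich family of the extracellular matrix, Dcn, Lum, Bgn, Fmod, Ogn, Aspn, Prelp, Omd, Ecm2 and Lrrc17, taken from the 47937 genes of the count table. They were listed by name after the RNA levels of the 3 genotypes had been compared, so they were selected on the differences in RNA level between the genotypes themselves. Levels and fold changes of these genes are therefore a description, and no p-value is given for any of them. Of the 10 genes, 7 passed the filter on low counts and entered the fit of 15540 genes, whereas Lum, Aspn and Ecm2 did not. Fmod and Prelp passed only through their WT libraries.

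RNA-seq was performed on mouse embryonic fibroblasts (MEFs) of 3 genotypes with 3 libraries each. The control line, called WT, is a clone of MEFs with a conditional allele of Eset1 that a tamoxifen-inducible Cre can delete, and all 3 lines descend from it. S1S2 is 1 clone in which Suv39h1 and Suv39h2, enzymes that trimethylate histone H3 at lysine 9, were disrupted with CRISPR/Cas9. G9Gl is 1 clone in which G9a (Ehmt2) and Glp (Ehmt1), enzymes that dimethylate the same residue, were disrupted in the same way. With 1 clone per genotype, an effect of the genotype and a difference between clones cannot be told apart. The methods call the libraries biological replicates, but the labels name neither separate cultures nor a tamoxifen treatment, so p-values measure the spread between libraries, which may be technical. The question the design addresses is which RNAs differ when either pair of enzymes is missing.

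Libraries held 21319778 to 32157623 counts on genes. Correlations of log2 levels within a genotype were at least 0.993 and those between genotypes at most 0.966, and no library stood apart from its group. In S1S2, Suv39h1 RNA was at 41.9 ± 3.14 CPM (counts scaled to a common library size with TMM factors; mean ± SD, n = 3) against 108 ± 4.59 in WT, whereas Suv39h2 RNA was higher, at 55.2 ± 2.34 against 33.9 ± 0.670. In G9Gl, Ehmt1 was at 50.2 ± 1.62 against 103 ± 1.78 CPM and Ehmt2 at 54.2 ± 2.82 against 125 ± 9.63. The clones were chosen for missing protein, which RNA levels do not test. All 10 fibroblast markers were detected, with summed levels of 10993 to 12371 CPM in WT, 8338 to 8416 in S1S2 and 8659 to 9454 in G9Gl. Of these markers, 5 were called lower in S1S2 and 0 higher, and in G9Gl 2 were called lower and 1 higher. Over all fitted genes, 4.34% were called lower and 4.66% higher in S1S2, and 3.40% and 6.77% in G9Gl. The PDGF receptor genes Pdgfra (-2.04 in S1S2 and -1.85 in G9Gl on the log2 scale) and Pdgfrb (-1.14 and -1.34) were lower in both mutants. Thy1, a surface marker of fibroblasts, was lower in S1S2 (-1.29) and higher in G9Gl (2.94), and the collagen genes Col1a2 (-2.60) and Col3a1 (-3.01) were lower in S1S2. Col1a1, Vim, Fn1, Ddr2 and P4ha1 were not called in either mutant. In S1S2, Vim differed from WT by 0.72 (edgeR adjusted p = 1.40e-08) and P4ha1 by -0.79 (edgeR adjusted p = 3.13e-09). Col1a1 differed there by -0.36 (edgeR adjusted p = 0.00108), Fn1 by 0.09 and Ddr2 by -0.03. The part of these differences in the results was not tested.

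Small leucine-rich proteoglycans are secreted proteins built around a run of leucine-rich repeats, and most carry chains of chondroitin, dermatan or keratan sulfate. They bind fibrillar collagens, in which they set how fibrils grow and pack, and they hold or release growth factors such as TGF-β. Decorin, biglycan and asporin form the first class of the family, fibromodulin, lumican, PRELP and osteoadherin the second, and osteoglycin (mimecan) belongs to the third. ECM2 is a related matrix protein, and Lrrc17 encodes a secreted leucine-rich repeat protein that is not a proteoglycan and is known as an inhibitor of RANKL-driven osteoclast formation. Fibroblasts of connective tissue are a main source of these proteins.

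Sequences of the 250 bases upstream of the RefSeq start (GRCm38.p6) are shown for 5 of the genes, chosen to set different patterns side by side: Bgn, lower in S1S2 and higher in G9Gl; Ogn and Omd, lower in both and lowest in S1S2; Fmod, nearly absent from both; and Lrrc17, nearly absent from S1S2. The windows are those of Bgn at chrX:73483351-73483600, Ogn at chr13:49607765-49608014, Omd at chr13:49582212-49582461, Fmod at chr1:134037004-134037253 and Lrrc17 at chr5:21543277-21543526, all on the plus strand. They run 5′ to 3′ with CG dinucleotides in capitals.
Bgn: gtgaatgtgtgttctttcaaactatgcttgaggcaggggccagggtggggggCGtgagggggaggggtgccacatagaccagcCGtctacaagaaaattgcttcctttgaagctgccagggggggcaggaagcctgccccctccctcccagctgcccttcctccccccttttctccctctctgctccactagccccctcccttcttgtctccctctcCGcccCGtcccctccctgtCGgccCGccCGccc
Ogn: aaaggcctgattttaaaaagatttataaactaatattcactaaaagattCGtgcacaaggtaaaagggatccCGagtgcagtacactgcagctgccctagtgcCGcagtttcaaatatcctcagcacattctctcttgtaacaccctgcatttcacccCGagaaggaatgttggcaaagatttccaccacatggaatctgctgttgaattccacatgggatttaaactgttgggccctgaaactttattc
Omd: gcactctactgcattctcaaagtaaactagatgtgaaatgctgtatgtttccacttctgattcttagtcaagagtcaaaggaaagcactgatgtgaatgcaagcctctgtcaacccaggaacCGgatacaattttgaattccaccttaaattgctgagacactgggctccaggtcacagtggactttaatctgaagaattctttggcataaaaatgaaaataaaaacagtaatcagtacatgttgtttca
Fmod: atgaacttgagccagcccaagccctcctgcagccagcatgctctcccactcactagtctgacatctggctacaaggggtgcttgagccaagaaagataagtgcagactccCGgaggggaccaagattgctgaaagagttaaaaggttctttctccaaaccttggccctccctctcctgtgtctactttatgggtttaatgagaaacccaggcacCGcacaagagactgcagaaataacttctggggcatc
Lrrc17: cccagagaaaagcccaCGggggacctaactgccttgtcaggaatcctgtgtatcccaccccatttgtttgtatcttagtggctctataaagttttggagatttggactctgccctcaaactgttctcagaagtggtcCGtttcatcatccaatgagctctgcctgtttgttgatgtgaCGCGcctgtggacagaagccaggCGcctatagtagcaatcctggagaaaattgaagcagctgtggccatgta

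The Bgn window held 7 CG dinucleotides, that of Lrrc17 5, that of Ogn 4, that of Fmod 2 and that of Omd 1. Among all 32851 windows in the RefSeq table the median was 6, with quartiles of 2 and 16, and 8 of the 10 genes had a window (Dcn and Lum had none), with a median of 3.5. Windows were also searched on both strands for TATAAA, found in those of Ogn, Aspn and Lrrc17 (3 of 8, against 12.4% of all windows), and for CCAAT, found in Aspn, Prelp and Lrrc17 (3 of 8, against 33.8%). GGGCGG, the core letters of an Sp1 site, was in the Bgn and Ecm2 windows (2 of 8, against 32.7%). TGACTCA (4.46% of all windows) and GTCTAGAC (0.167%) were in none of the 8. A match describes letters only and was not tested as a site.

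Bgn, which encodes biglycan, was the member that lay below WT in one mutant and above it in the other. Its levels in the 3 libraries were 198, 234 and 164 CPM in WT, 121, 118 and 114 CPM in S1S2, and 335, 379 and 391 CPM in G9Gl. Thus all S1S2 libraries were below all WT libraries and all G9Gl libraries above them, with no overlap between any pair of genotypes. The fitted log2 fold change was -0.75 ± 0.15 (SE) for S1S2 against WT, 0.89 ± 0.16 for G9Gl against WT and 1.64 ± 0.07 for G9Gl against S1S2. Differences from WT were thus less than 2-fold in both mutants, and only that between the mutants passed the call rule, an adjusted p of at most 0.01 with a fold change of at least 2. Without WT replicate 2 the G9Gl difference from WT was 1.02 and became a call.

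Dcn, which encodes decorin, a collagen- and TGF-β-binding relative of biglycan, showed another order. It was at 7.19, 6.74 and 7.70 CPM in WT, at 1.24, 2.84 and 2.44 CPM in S1S2, and at 0.175, 0.287 and 0.130 CPM in G9Gl. No libraries overlapped between genotypes, and G9Gl was the lowest. The log2 fold change was -1.71 ± 0.36 in S1S2 and -5.17 ± 0.25 in G9Gl against WT. G9Gl held 17 counts in all against 677 in WT, a 36.9-fold lower level with a 95% counting interval of 22.9 to 63.8. In bulk RNA, fewer cells that express a gene and less RNA per cell cannot be told apart, which holds for every gene described here.

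Aspn and Ecm2 were near the detection limit. Aspn, which encodes asporin, a member with an aspartate-rich end, had 10, 6 and 8 counts in the WT libraries, 0 in every S1S2 library, and 0, 0 and 1 in G9Gl. Its level was thus at least 6.01-fold lower in S1S2 against a floor of 3 counts over the group, where the exact 95% limit was 4.52, and 22.3-fold lower in G9Gl with an interval of 3.63 to 915. Ecm2 had 10, 12 and 12 counts in WT, 6, 3 and 4 in S1S2, and 5, 7 and 5 in G9Gl. Both mutants lay below WT without overlap and overlapped each other. The ratio was 1.96-fold lower in S1S2 (interval 1.01 to 4.06) and 1.85-fold lower in G9Gl (1.01 to 3.54). These intervals and the floor cover counting error only.

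Fmod, which encodes fibromodulin, a keratan sulfate proteoglycan that binds collagen I fibrils, was nearly absent from both mutants. WT libraries held 127, 94 and 99 counts (3.90, 3.11 and 3.19 CPM), S1S2 libraries 3, 3 and 1, and G9Gl libraries 0, 1 and 1. The level was 34.3-fold lower in S1S2 (interval 16.5 to 86.1) and 148-fold lower in G9Gl (interval 40.7 to 1230). The mutants did not overlap each other, but 7 and 2 counts in all gave a ratio of 4.32 with an interval of 0.823 to 42.6, so a difference between them was not detectable at this depth.

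Prelp, whose product anchors basement membranes to collagen, had 19, 23 and 14 counts in WT, 7, 2 and 1 in S1S2, and 0 in every G9Gl library. Its log2 fold change in S1S2 was -2.03 ± 0.57, a call that was lost without WT replicate 1 or 2 or without S1S2 replicate 2 or 3, and with DESeq2 in place of edgeR. Without S1S2 replicate 1, which held 7 of the 10 counts, the value was -3.19 and stayed a call. Against a floor of 3 counts over the group, the G9Gl level was at least 17.3-fold below WT and at least 4.11-fold below S1S2, and the exact 95% limits were 13.6 and 2.77. The call between the mutants was lost without WT replicate 1, without S1S2 replicate 1 or without any of the G9Gl replicates, and also with the replicate number as a block. Lum, which encodes lumican, held 0, 2 and 0 counts in WT and 0 in all 6 mutant libraries, so no comparison could be made.

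Omd, which encodes osteoadherin (osteomodulin), a keratan sulfate proteoglycan of mineralised matrix, was at 6.21, 4.82 and 7.96 CPM in WT. It was at 0.368, 0.728 and 0.470 CPM in S1S2 and at 2.53, 2.55 and 1.47 CPM in G9Gl. The genotypes did not overlap and stood in the order WT, G9Gl, S1S2. The log2 fold change was -3.55 ± 0.33 in S1S2, -1.54 ± 0.33 in G9Gl and 2.00 ± 0.36 for G9Gl against S1S2. Of its 75-base stretches, 3.38% also occur in transcripts of other genes, in a repeat-like sequence, so some of its reads could have been split.

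Ogn, which encodes osteoglycin, followed the same order as Omd with smaller differences. It was at 88.7, 78.6 and 122 CPM in WT, at 27.6, 30.4 and 31.3 CPM in S1S2, and at 54.6, 48.0 and 45.8 CPM in G9Gl. No libraries overlapped between genotypes. The log2 fold change was -1.69 ± 0.20 in S1S2 and -0.96 ± 0.20 in G9Gl, and it was 0.73 ± 0.09 for G9Gl against S1S2. The G9Gl value lay close to the 2-fold limit, and it became a call without WT replicate 1 (-1.02), WT replicate 2 (-1.09) or G9Gl replicate 1 (-1.04).

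Lrrc17 had the largest fitted difference between the mutants among the 7 genes. Its levels were 16.4, 14.2 and 20.3 CPM in WT and 14.0, 13.1 and 13.3 CPM in G9Gl, whereas the S1S2 libraries held 2, 1 and 1 counts. The S1S2 level was 299.7-fold below WT (interval 117 to 1101) and G9Gl was 238-fold above S1S2 (interval 92.5 to 873). Between WT and G9Gl the libraries did not overlap, but the log2 fold change of -0.33 ± 0.15 was not a call. Lrrc17 shares 161 exon bases with Fbxl13 on the opposite strand, and without a stated strand setting reads from these bases cannot be told apart. Fbxl13 was at 0.247, 0.0795 and 0.549 CPM on average in WT, S1S2 and G9Gl.

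**Figure D1:**
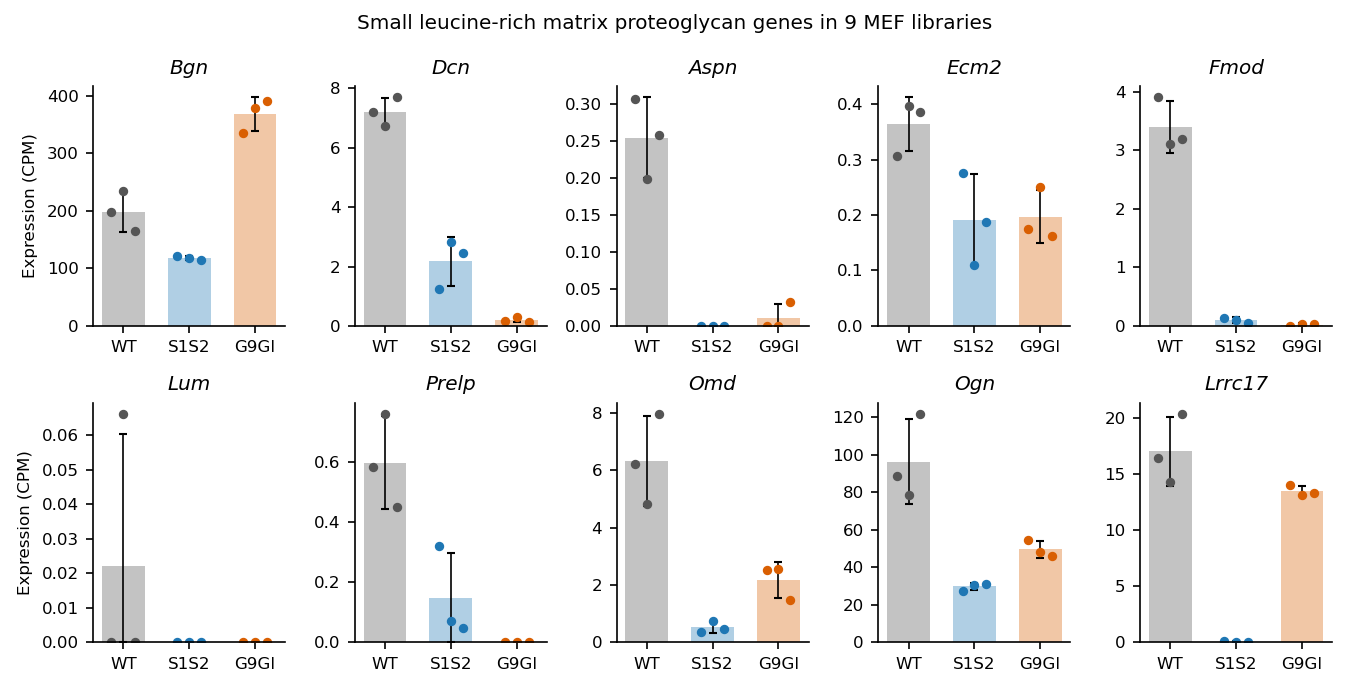
Level of each of the 10 genes (CPM, 1 linear axis per gene) in the WT, S1S2 and G9Gl libraries. Points are libraries, bars the mean of 3 and whiskers the SD, cut at 0; Bgn alone rises above WT in G9Gl, Lrrc17 is near 0 only in S1S2, and Lum is at or near 0 throughout.

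Per kilobase of exon, Ogn (37.5 CPM per kb) and Bgn (32.6) led in WT, and their libraries overlapped. Lrrc17 (4.71) and Omd (2.81) followed, each clear of the next gene, then Dcn (1.24) and Fmod (1.03), which overlapped. Prelp (0.166), Aspn (0.108), Ecm2 (0.0640) and Lum (0.00900) lay below these, with too few counts to be ranked among themselves. In S1S2 the order was Bgn (19.3) and Ogn (11.6), clear of each other, before Dcn (0.373) and Omd (0.232), which overlapped. In G9Gl it was Bgn (60.4), Ogn (19.3), Lrrc17 (3.74) and Omd (0.970), each clear of the next. Thus Bgn stood first without overlap in both mutants and shared the lead with Ogn in WT.

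Summed over the 10 genes, the level was 330.2 ± 11.3 CPM in WT, 151 ± 1.56 in S1S2 and 434 ± 23.6 in G9Gl. The larger sum in G9Gl was carried by Bgn, which made up 50.4% to 68.2% of the sum in the WT libraries, 76.8% to 80.2% in S1S2 and 82.4% to 86.5% in G9Gl. Ogn made up 22.9% to 37.3%, 18.2% to 21.03% and 10.1% to 13.4%. The other 8 genes together were at 35.2 ± 4.97 CPM in WT, 3.19 ± 0.733 in S1S2 and 16.1 ± 0.880 in G9Gl.

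Counted over the family, 6 of the 7 fitted genes (Dcn, Fmod, Ogn, Prelp, Omd and Lrrc17) were called lower in S1S2 than in WT, and 0 were called higher. Over all 15540 genes 4.34% were called lower and 4.66% higher. Libraries lay below WT without overlap for 9 of the 10 genes, 7 of them fitted, against 27.5% of the fitted genes, and above WT for 0, against 28.5%. In G9Gl, 4 (Dcn, Fmod, Prelp and Omd) were called lower than in WT and 0 higher, beside 3.40% and 6.77% of all genes. Libraries lay below WT without overlap for 8 genes, 6 of them fitted, and above it for 1, Bgn, against 25.5% and 27.3%. Between the mutants, 3 genes (Bgn, Omd and Lrrc17) were called higher in G9Gl than in S1S2 and 2 (Dcn and Prelp) lower, beside 7.97% and 5.08% of all genes. Libraries did not overlap for 4 higher and 3 lower genes, against 30.5% and 30.3%. These contrasts chose the genes, so nothing is read from the counts.

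**Figure D2:**
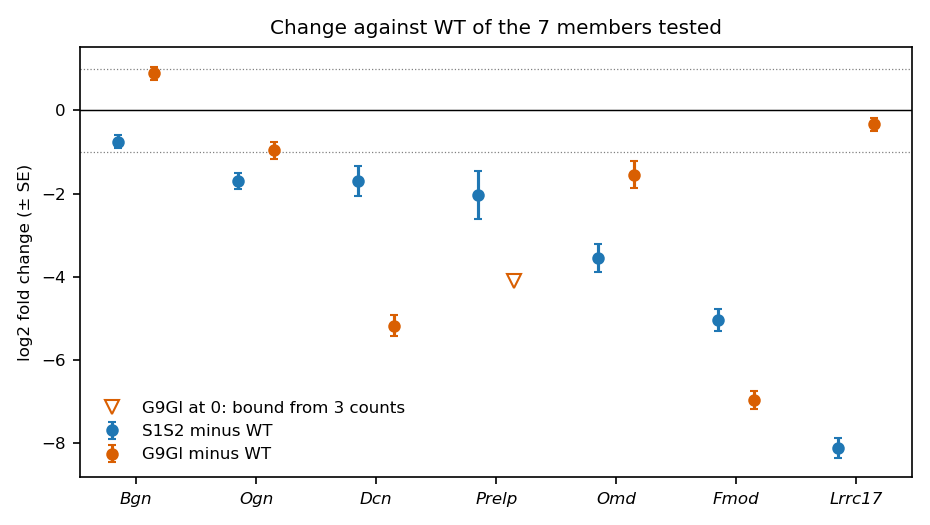
Log2 fold change against WT of the 7 fitted genes for S1S2 and G9Gl (points, with SE as whiskers; dotted lines mark 2-fold). The open triangle is Prelp, at 0 in G9Gl and placed at its bound of 17.3-fold; Dcn and Prelp are lower in G9Gl, Omd, Ogn and Lrrc17 are lower in S1S2, and Bgn lies on both sides of 0.

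The median log2 fold change of the 7 fitted genes was -2.03 in S1S2, -1.54 in G9Gl and 0.73 for G9Gl against S1S2, beside medians of -0.0032, -0.0067 and 0.00016 over all genes. The S1S2 median is the value of Prelp itself and became -3.19 without S1S2 replicate 1. With at least 10 counts required in every library, only Bgn and Ogn could be fitted, and the medians were -1.23, -0.03 and 1.201. Placing Prelp at its bound did not move the medians of the 7 genes. Both mutant comparisons use the same 3 WT libraries, so their values are set side by side and their likeness is not measured.

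The 10 genes lie at 5 places in the genome (GRCm38). Ecm2, Aspn, Omd and Ogn form a cluster on chromosome 13, in the order chr13:49504810-49532789, chr13:49544443-49567565, chr13:49582462-49592822 and chr13:49608046-49624501, all on the plus strand. All 4 lie inside the span of Cenpp (chr13:49464023-49652785), a centromere protein gene on the minus strand. Ecm2, Omd and Ogn each sit within 1 of its introns, and Aspn shares 7 exon bases with it. Cenpp was at 15.6 ± 2.30 CPM in WT, 9.57 ± 0.410 in S1S2 and 14.4 ± 0.272 in G9Gl. Its log2 fold change was -0.71 ± 0.13 in S1S2 (edgeR adjusted p = 1.54e-05, below 2-fold) and -0.12 ± 0.12 in G9Gl (edgeR adjusted p = 0.307). Thus Omd and Ogn differed from WT by more than the gene that surrounds them, and the part of antisense reads in their counts was not tested.

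Of the genes that flank the cluster, 4 were fitted (Nol8, Ippk, Iars and Gm25394), and none was called. Nol8 differed from WT by 0.04 and 0.23 on the log2 scale in S1S2 and G9Gl, Ippk by 0.24 and 0.27, and Iars, a tRNA synthetase gene, by -0.49 (edgeR adjusted p = 8.12e-06) and -0.00. Gm25394, a snoRNA gene inside the span of Iars, differed by -0.50 (edgeR adjusted p = 0.0829) and 0.22 (edgeR adjusted p = 0.400). The median log2 fold change of the tested genes of chromosome 13 was 0 in S1S2 and 0.05 in G9Gl.

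**Figure D3:**
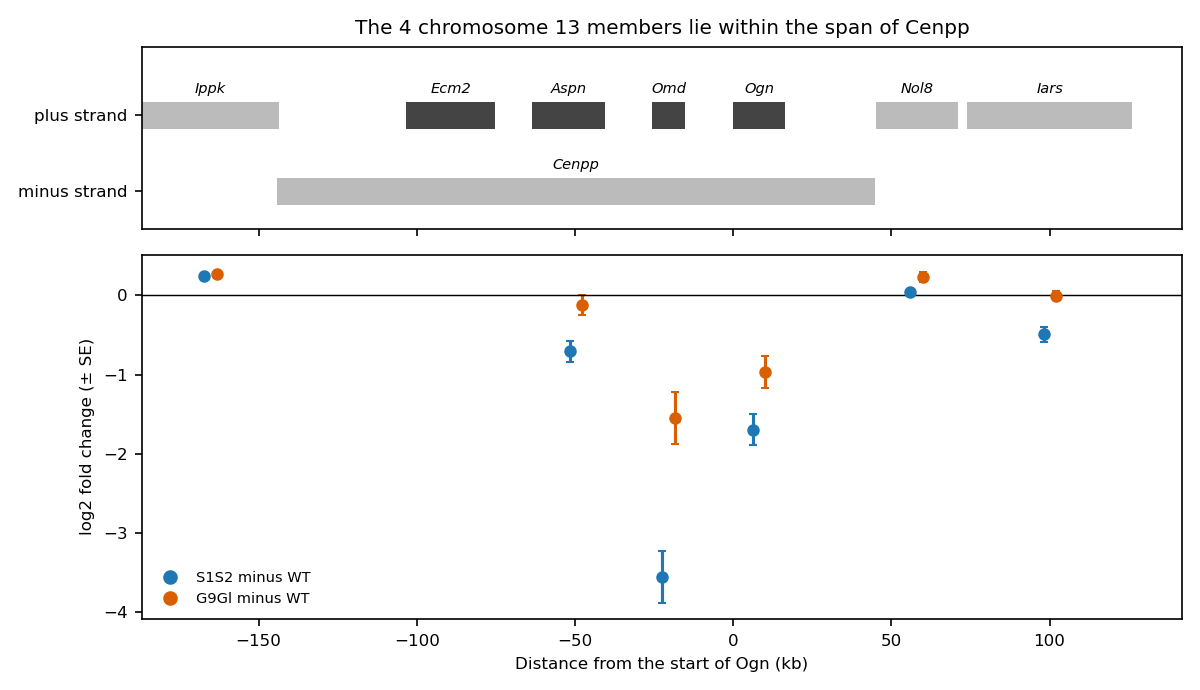
Upper panel: span and strand of Ecm2, Aspn, Omd and Ogn (dark) and of their neighbours (grey), by distance from the start of Ogn in kb. Lower panel: log2 fold change against WT (± SE) of each fitted protein-coding gene at its midpoint; Omd and Ogn lie below Cenpp, Ippk, Nol8 and Iars in both mutants, and Ecm2 and Aspn, which were not fitted, have no point.

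Fmod (chr1:134037254-134048277, plus strand) and Prelp (chr1:133910304-133921414, minus strand) lie on chromosome 1, where the median log2 fold change was -0.13 in S1S2 and -0.26 in G9Gl. Optc, the neighbour of Prelp on the same strand, encodes opticin, another member of the wider family. Optc was at 0.363 ± 0.0488 CPM in WT, 0.0760 ± 0.0947 in S1S2 and 0.459 ± 0.0639 in G9Gl. Btg2, an antiproliferative gene beside Fmod, rose in S1S2, by 1.03 ± 0.10 on the log2 scale (edgeR adjusted p = 1.91e-08), a call lost without WT replicate 2 (0.98), S1S2 replicate 1 (0.997) or S1S2 replicate 3 (0.99). In G9Gl, Btg2 differed by 0.57. Gm38140, an unclassified transcript beyond it, differed by 0.85 in S1S2 (edgeR adjusted p = 0.0613) and 0.35 in G9Gl (edgeR adjusted p = 0.478). Gm15851, antisense to Prelp with 350 shared exon bases, had 0 counts in every library.

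Dcn (chr10:97479609-97518143) and Lum (chr10:97565128-97572703) are neighbours on the plus strand of chromosome 10, followed by Kera and Epyc, genes of the same family that encode keratocan and epiphycan. Kera and Epyc had 0 counts in all 9 libraries. Bgn is on the X chromosome (chrX:73483602-73495933, plus strand) next to Haus7, which differed from WT by 0.62 in S1S2 (edgeR adjusted p = 7.87e-08) and by -0.17 in G9Gl, opposite in sign to Bgn in both. Lrrc17 (chr5:21543559-21575904, plus strand) lies inside the span of Fbxl13 on chromosome 5. Fbxl13 differed from WT by -1.49 in S1S2 and by 1.15 in G9Gl, and was called only between the mutants, at 2.64. Fbxl13 passed the filter only through G9Gl, so no p-value is given for it. Without S1S2 replicate 2 that difference was 3.45. Fam185a, Armc10 and Napepld, the next genes on that chromosome, differed from WT by -0.29 to 0.38. The remaining neighbours within 100 kb of a member were not fitted. Mir3966, Gm18336, Gm26726, Gm37741, Zfp92, Gm18970, Gm10537 and Gm28441 had 0 counts in every library, and Trex2, Atp2b3, Gm1627, Gm8618, Chit1, Gm23482, Gm6543 and Gm8539 reached at most 0.277 CPM in any library.

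Companion genes were taken from 5 lists drawn up from known roles, but with earlier results of these data known. Their p-values are adjusted over all 15540 genes and are not tests of lists fixed in advance. Among 8 other small leucine-rich proteoglycan genes, 4 passed the filter and 3 had at most 3 counts in any library. In these lists, called means past both the adjusted p and the 2-fold limit. Their counts stand beside the shares called over all genes, 4.66% higher and 4.34% lower in S1S2, 6.77% and 3.40% in G9Gl, and 7.97% and 5.08% in G9Gl against S1S2. By the adjusted p alone, these shares were 20.3% higher and 17.6% lower in S1S2, 19.0% and 16.0% in G9Gl, and 21.6% and 21.1% between the mutants. No list was tested against all genes, so nothing is called particular to it. Called were 0 higher and 2 lower in S1S2, 0 higher and 1 lower in G9Gl, and 1 higher and 0 lower in G9Gl than in S1S2. Podn, which encodes podocan, was at 2.00 ± 0.219 CPM in WT, 0.912 ± 0.141 in S1S2 and 0.969 ± 0.105 in G9Gl. It fell by 1.12 ± 0.15 on the log2 scale in S1S2 (edgeR adjusted p = 4.04e-04) and by 1.05 ± 0.12 in G9Gl (edgeR adjusted p = 4.91e-04), the latter a call lost without WT replicate 3 or G9Gl replicate 3. Optc was called lower in S1S2 (-2.04 ± 0.54, edgeR adjusted p = 0.00972) and higher in G9Gl than in S1S2 (2.38 ± 0.54, edgeR adjusted p = 0.00232). The first of these calls held only without S1S2 replicate 2 when libraries were left out in turn, at -3.73, and was also lost with DESeq2 (DESeq2 adjusted p = 0.0253) and with the replicate block (edgeR adjusted p = 0.0115). The second was lost without S1S2 replicate 1 or 3, and its value was 4.07 without S1S2 replicate 2. Tsku, which encodes tsukushi, differed by 0.14 and 0.53 and was not called. The list medians were -0.63 in S1S2, 0.25 in G9Gl and 0.34 between the mutants.

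Of 25 other proteoglycan core proteins, 15 passed the filter. In S1S2, 2 were called higher and 0 lower, and by the adjusted p alone 10 were higher and 2 lower (20.3% and 17.6% over all genes). Sdc4, a cell surface heparan sulfate proteoglycan, rose from 116 ± 10.7 to 235 ± 16.7 CPM (log2 fold change 1.01, edgeR adjusted p = 2.17e-09), a call lost without WT replicate 3 or S1S2 replicate 1. Against WT, G9Gl had 0 higher and 1 lower call (8 and 4 by the adjusted p alone), and against S1S2 it had 0 and 2 (3 and 6). List medians were 0.29, 0.24 and -0.14.

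Enzymes that build the sulfated chains were the next list, in which 23 of 29 genes passed the filter. Called were 2 higher and 1 lower in S1S2 and 1 higher and 2 lower in G9Gl, with 2 higher and 2 lower in G9Gl than in S1S2. By the adjusted p alone, 8 were higher and 3 lower in S1S2, 1 and 3 in G9Gl, and 3 and 11 between the mutants, where 21.6% of all genes were higher and 21.1% lower. Chst7, a chondroitin sulfotransferase, rose in S1S2 from 0.973 ± 0.326 to 4.55 ± 0.900 CPM (2.22 ± 0.30, edgeR adjusted p = 3.77e-07) and was lower in G9Gl than in S1S2 by 2.55 on the log2 scale (-2.55, edgeR adjusted p = 8.12e-08). Chst2, an N-acetylglucosamine sulfotransferase, fell in S1S2 from 3.20 ± 0.138 to 0.723 ± 0.235 CPM (-2.11 ± 0.27, edgeR adjusted p = 2.29e-07). Dsel, a dermatan sulfate epimerase like Dse, fell in G9Gl from 27.9 ± 1.11 to 11.6 ± 0.708 CPM (-1.26 ± 0.06, edgeR adjusted p = 1.02e-10). Pxylp1, a xylose phosphatase of the chain linker, fell in G9Gl from 8.54 ± 0.612 to 2.26 ± 0.369 CPM (-1.92 ± 0.15, edgeR adjusted p = 5.24e-09). List medians were 0.20, -0.03 and -0.31.

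Of 27 genes for collagens and other proteins that form or bind collagen fibrils, 25 passed the filter. Called were 1 higher and 7 lower in S1S2 and 4 higher and 1 lower in G9Gl, with 11 higher and 1 lower in G9Gl than in S1S2. Over all genes, 724 were called higher and 674 lower in S1S2, 1052 and 528 in G9Gl, and 1238 and 790 between the mutants. By the adjusted p alone, 6 were higher and 14 lower in S1S2, 13 and 7 in G9Gl, and 17 and 3 between the mutants. Col1a2 fell in S1S2 from 2394 ± 90.9 to 395 ± 11.9 CPM (-2.60 ± 0.04, edgeR adjusted p = 7.51e-17), and Col3a1 from 1526 ± 42.3 to 190 ± 14.7 CPM (-3.01 ± 0.07, edgeR adjusted p = 5.74e-17). Col6a3 fell from 18.7 ± 0.345 to 0.496 ± 0.299 CPM (-5.15 ± 0.41, edgeR adjusted p = 8.43e-14), with a value of -5.83 without S1S2 replicate 2. In G9Gl the same 3 genes differed from WT by -0.24, -0.86 and 0.70, all below 2-fold. Col1a1, the partner chain of Col1a2, differed from WT by -0.36 in S1S2 and -0.44 in G9Gl and was not called.

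Postn, which encodes periostin, a collagen-binding matrix protein, went opposite ways, from 51.6 ± 2.80 CPM in WT to 7.22 ± 0.996 in S1S2 and 126 ± 5.67 in G9Gl (-2.82 and 1.29, edgeR adjusted p = 2.06e-14 and 1.05e-11). Tnc, which encodes tenascin-C, rose in G9Gl from 57.0 ± 4.51 to 488 ± 28.1 CPM (3.10 ± 0.08, edgeR adjusted p = 1.25e-16). Col5a3 rose from 81.9 ± 8.63 to 281 ± 23.6 CPM (1.78 ± 0.11, edgeR adjusted p = 2.18e-12), and Col12a1 fell from 137 ± 3.34 to 46.1 ± 4.79 CPM (-1.57 ± 0.09, edgeR adjusted p = 1.08e-12). Col11a1, a collagen of cartilage fibrils, rose from 0.0749 ± 0.0746 to 4.31 ± 0.533 CPM in G9Gl (5.77 ± 0.40), by 6.89 without WT replicate 3. Col11a1 passed the filter only through G9Gl, so no p-value is given for it. It had 0 counts in S1S2, at least 102-fold below G9Gl against a floor of 3 counts over the group, with an exact 95% limit of 82.2. List medians were -0.32, 0.25 and 0.50, also with Col11a1 at its bound.

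Signalling proteins that bind family members, or share a pathway with them, made up the last list. Of 18 genes 16 passed the filter, and 1 was called higher and 3 lower in S1S2, 1 higher and 0 lower in G9Gl, and 2 higher and 1 lower in G9Gl than in S1S2 (7.97% and 5.08% over all genes). By the adjusted p alone, 6 were higher and 6 lower in S1S2, 7 and 2 in G9Gl, and 9 and 6 between the mutants. Tnfsf11 encodes RANKL, the osteoclast factor whose action the Lrrc17 product opposes. It was at 0.712 ± 0.178 CPM in WT, 0.0887 ± 0.123 in S1S2 and 3.39 ± 0.761 in G9Gl, a change of -3.0 ± 0.65 (edgeR adjusted p = 4.45e-04) and 2.24 ± 0.27 (edgeR adjusted p = 4.13e-06). Without S1S2 replicate 1 the first of these was -4.85. Tnfrsf11b, the decoy receptor of RANKL, had 0 counts in every library.

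Bmp4, a growth factor bound by biglycan, fell in S1S2 from 72.4 ± 9.21 to 28.6 ± 0.930 CPM (-1.34 ± 0.11, edgeR adjusted p = 1.68e-10). Tlr4, a receptor for soluble biglycan, fell there from 30.4 ± 3.52 to 15.1 ± 1.41 CPM (-1.01 ± 0.12, edgeR adjusted p = 6.34e-08), a call lost without WT replicate 3 or S1S2 replicate 1, and was higher in G9Gl than in S1S2 by 1.52 (edgeR adjusted p = 1.37e-10). Bmp4, Tlr4 and Bgn were below WT in S1S2, whereas in G9Gl Bmp4 differed by -0.69 and Tlr4 by 0.51. Tlr2, another receptor of the list, differed by 0.18 in S1S2 and -0.14 in G9Gl, opposite in sign to Bgn, and was not called. The TGF-β ligand genes Tgfb1, Tgfb2 and Tgfb3 differed from WT by 0.30 to 0.77 in S1S2 and by -0.05 to 0.30 in G9Gl, all below 2-fold. Egfr and Met, receptors that decorin binds, differed by -0.54 and 0.39 in S1S2 and by -0.36 and 0.59 in G9Gl. Kdr, another receptor that decorin binds and an endothelial marker, was called in S1S2, where 85 counts stood against 2 in WT, a ratio of 56.6 with an interval of 15.2 to 475. Its fitted log2 fold change of 5.56 became 8.06 without WT replicate 3. Kdr passed the filter only through S1S2, so its call is a description. List medians were 0.09, 0.22 and 0.21.

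**Figure D4:**
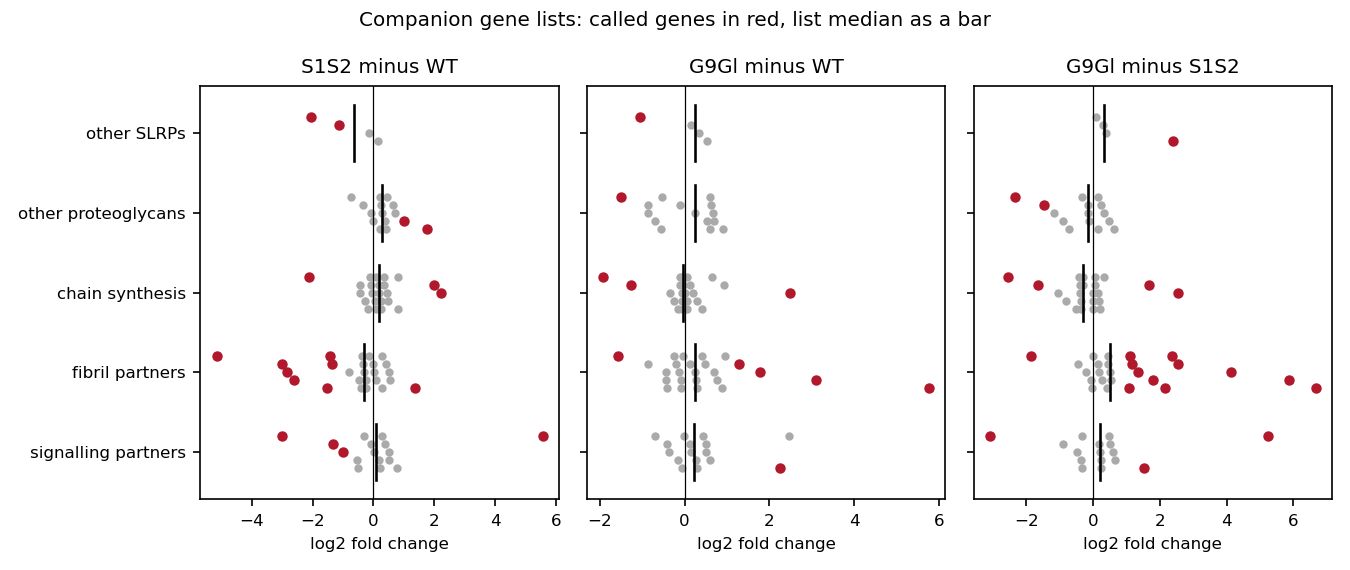
Log2 fold change of each fitted gene of the 5 companion lists in the 3 comparisons (points; red where called, black bars at the list median). Called fibril partners lie mostly below 0 in S1S2 (7 of 8, where 674 of the 15540 genes were called lower and 724 higher) and above it in G9Gl (4 of 5, where 1052 of all genes were called higher and 528 lower); Col11a1, at 0 in S1S2, is placed at its bound in the comparisons with S1S2.

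The tested genes with the most similar pair of fold changes against WT were sought for each fitted member among 13493 genes with at least 1 CPM in 1 genotype, by Euclidean distance over the pair of log2 values. Nearest to Bgn were Nipsnap1 (distance 0.031) and G6pc3 (0.11), and nearest to Ogn were Mpp3 (0.15) and Crabp1 (0.16). Dcn was nearest to Isyna1 (0.46) and Celsr1 (0.77), and Omd to C130012C08Rik (0.40) and Pcdh9 (0.41). Fmod was nearest to H19 (1.03) and Kctd15 (1.23), Prelp to Eya4 (0.32) and Tbx1 (0.97), and Lrrc17 to Gm11549 (0.69) and Mmp16 (0.74). Distances for Prelp, Fmod and Lrrc17 rest on fitted values of groups with 0 to 4 counts and depend on the prior count.

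Markers of other cell types that express these genes were followed beside them. Tendon markers summed to 32.6 to 33.9 CPM in WT, 27.3 to 28.6 in S1S2 and 52.9 to 62.8 in G9Gl, with 3 of 5 markers (Tnmd, Kera and Thbs4) at 0. Chondrocyte markers summed to 2.19 to 2.58, 2.87 to 3.39 and 2.07 to 2.76 CPM, with 4 of 6 at 3 counts or fewer in every library. Osteoblast markers summed to 23.4 to 28.1, 20.1 to 26.3 and 21.2 to 24.6 CPM, with 3 of 5 at that level. Skeletal muscle markers summed to 1.97 to 2.67, 2.51 to 3.48 and 7.32 to 7.96 CPM, with 3 of 4 at that level, and Des was called higher in G9Gl (1.69, edgeR adjusted p = 2.91e-08). Epithelial markers summed to 0.297 to 0.548 CPM in WT, 4.66 to 5.55 in S1S2 and 0.294 to 0.395 in G9Gl, with 2 of 5 at that level. Most of the S1S2 sum was Krt8, a simple-epithelium keratin, at 4.67 ± 0.512 CPM against 0.138 ± 0.0489 in WT. Krt8 passed the filter only through S1S2, so no p-value is given for it. Endothelial markers, Kdr among them, summed to 0.123 to 0.193, 1.55 to 1.75 and 0.646 to 1.89 CPM, with 1 of 4 at that level. Kdr led the sum in S1S2 (1.22 CPM on average). In G9Gl, where Kdr was at 0.138 CPM, the sum was led by Cdh5, an endothelial cadherin gene, at 1.01 ± 0.503 CPM. Cdh5 was at 0 in every WT library and passed the filter only through G9Gl, so no p-value is given for it. Adipocyte markers (1.06 to 2.19 CPM over all libraries, 2 of 4 at that level) and blood markers (3.21 to 4.70 CPM, 1 of 4) were low throughout. The tendon sum was highest in G9Gl, like Bgn, through Scx alone (27.1, 23.3 and 54.0 CPM on average in WT, S1S2 and G9Gl), since Mkx was lowest there (6.12, 4.80 and 3.08 CPM). The epithelial sum was highest in S1S2, where Bgn, Omd, Ogn and Lrrc17 were lowest on average. Dcn, Fmod and Prelp were lowest on average in G9Gl, though for Fmod a difference between the mutants was not detectable. The part of these markers in the results was not tested.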

How the data were processed

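Total RNA libraries of 3 WT, 3 S1S2 and 3 G9Gl MEF samples were sequenced with paired-end reads after a stranded kit. According to the methods, the authors removed adapters (cutadapt), mapped reads to GRCm38 (STAR 2.5.2b) and assigned them to genes and repeats with TEtranscripts. The methods also name count matrices from snakePipes, and they do not state which route gave the table used here. The strand setting and the annotation release are not given in the sources used here. The deposited table holds raw counts per gene, without normalisation, for all 9 samples. Of its 47937 genes, 47310 were matched by identifier to GENCODE M21 and 627 were not.

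Genes were kept by filterByExpr of edgeR 4.0.16 (R 4.3.3; at least 10 counts at the median depth in 3 libraries and 15 in all), which left 15540. Counts were fitted in 1 model of 9 libraries with TMM factors and edgeR's quasi-likelihood test. Calls needed a fold change of 2 or more together with a p, adjusted after Benjamini and Hochberg, not above 0.01. SEs came from log2 CPM with a prior count of 2. Ratios of few counts carry exact 95% binomial intervals. Total counts were 21319778 to 32157623 per sample. Alternatives were DESeq2 1.42.0, other size factors, other filters, fewer libraries, a replicate block and removal of chromosome medians.

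The genes and all lists were chosen with earlier results of these data known. Named were all 10 members. From each list, up to 4 called genes per comparison with at least 1 CPM on average and the largest change were named, together with genes whose role is bound to a member, the neighbours within 100 kb, the 2 genes nearest in pattern and the targeted genes. Some genes outside these were named as plain context after their values were seen. Promoter windows came from RefSeq, GRCm38.p6.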

Additional observations from a re-analysis of the deposited data

Results flagged for a closer look

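Bgn, Postn, Tnfsf11 and Thy1 lay on opposite sides of WT in the mutants, Bgn as a member without overlap of libraries, the others as genes called against WT in both. For Bgn, all S1S2 libraries (114 to 121 CPM) were below and all G9Gl libraries (335 to 391 CPM) above those of WT (164 to 234 CPM), with a G9Gl minus S1S2 difference of 1.64 on the log2 scale. That difference passed the call rule, but it is given as a description with no p-value, since Bgn was chosen on these contrasts. Postn was called lower in S1S2 and higher in G9Gl, and the mutants differed by 4.12 (edgeR adjusted p = 3.73e-17, n = 3 per genotype). Tnfsf11 was called in the same directions, with a difference of 5.24 (edgeR adjusted p = 2.75e-08), which rests on 0 to 0.230 CPM in the S1S2 libraries and was 7.10 without S1S2 replicate 1. The fibroblast marker Thy1 was likewise called lower in S1S2 (-1.29) and higher in G9Gl (2.94), with a difference of 4.23 (edgeR adjusted p = 2.40e-15).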

How the results depend on the processing

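No fold change of a member reversed under any alternative that was run. With at least 10 counts required in every library, only Bgn and Ogn could be fitted, and 1, 0 and 1 members were called in S1S2, in G9Gl and between the mutants, with medians of -1.23, -0.0301 and 1.201. With only the libraries compared, 5 members were fitted between the mutants, with a median of 1.64. Leaving out 1 library in turn gave medians of -3.19 to -1.77, -1.71 to -1.32 and 0.66 to 0.79 and 5 to 6, 4 to 6 and 4 to 5 calls. The lowest S1S2 median, -3.19, came without S1S2 replicate 1. DESeq2 called Aspn but not Prelp in S1S2, where it called 6 members of 10. With no filter, Aspn became a call in S1S2 and G9Gl, giving 7 and 5. Removing chromosome medians made Ogn (-1.01), Col5a2 (1.03) and Loxl4 (1.06) calls in G9Gl and ended those of Col6a1 (0.96) and Col6a2 (0.89) between the mutants. Among other small leucine-rich proteoglycans, 1 gene was called in S1S2 with DESeq2, the strict filter, only the libraries compared or the replicate block, and 0 between the mutants with the strict filter. Leaving out libraries gave 1 to 2, 0 to 1 and 0 to 1 calls. Among other core proteins, 1 was called in S1S2 with no composition factor, no filter or the strict filter, 0 in G9Gl with DESeq2 or the strict filter, and 1 and 0 between the mutants with these. DESeq2 lost both Spock2 calls. Leaving out libraries gave 1 to 2, 1 and 1 to 2 calls, the lower S1S2 count without WT replicate 3 or S1S2 replicate 1 and the lower count between the mutants without S1S2 replicate 2 or G9Gl replicate 1. Signalling partners had 2, 0 and 1 calls with the strict filter. Loxl1 became a call in G9Gl (1.001) without WT replicate 2, and the Spock2 call between the mutants was lost without S1S2 replicate 2 (-1.26) or G9Gl replicate 1 (-1.42). For other named genes, single libraries that decide a call stand beside the gene. Apart from the filters, which change the genes fitted, and the smaller sets of libraries, the cause was not tested.

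Replicate numbers did not pair the samples (correlations of deviations of -0.07 to 0.12). The replicate block gave 1383, 1568 and 2022 calls against 1398, 1580 and 2028, with 1368, 1559 and 2005 shared. Members called were 6, 4 and 4, without Prelp between the mutants. At these depths, levels of genes with a few counts per library were not ranked among themselves.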
